A study of Mus musculus with 3 samples.

Results

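The fibroblast growth factor homologous factors are the genes Fgf11, Fgf12, Fgf13 and Fgf14, described here in sorted cells of the mouse embryonic dorsal root ganglion. All 4 were taken by name from a table of 41388 genes, and all 4 were found in every library. They are named for their similarity to growth factors, but their proteins lack a secretion signal and stay inside the cell. There they bind the intracellular tail of voltage-gated sodium channel alpha subunits and set how readily those channels inactivate, and they also bind islet-brain scaffold proteins of stress kinase pathways. FGF13 in addition binds microtubules, and in sensory neurons it is known for its part in heat pain.

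The study profiled RNA of Ret-positive cells of 14.5 dpc (days post coitum) embryos, an age at which sensory axons are growing. Dorsal root ganglia of spinal levels T11 to S1 were dissociated and sorted for the fluorescence of a Ret-EGFP reporter, on a C57BL/6 background. The genotype label, Tg(Ret-EGFP)SJ, writes the reporter as a transgene, whereas the series text describes EGFP knocked into 1 Ret allele. For library A, 100 ganglia came from 3 male and 2 female embryos. Library B also pooled 100 ganglia, from 2 male and 4 female embryos. For library D, 80 ganglia came from 3 males and 1 female. The libraries form 1 group with no reporter-negative population, so no comparison between conditions was possible, and the spread given here is that between pools. Total counts were 20181558 in A, 20355302 in B and 29061086 in D.

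All 8 sensory neuron markers reached 1 TPM (a count corrected for gene length and library total), and their TPM summed to 36563 (A), 31312 (B) and 34014 (D). Most of this sum came from Tubb3, Stmn2 and Gap43 (14755, 8246 and 8143 TPM on average), which are not specific to sensory neurons. Summed markers of other cells were lower: 487 to 878 TPM over 7 glial genes, 74.8 to 304 over 5 erythroid genes, 9.57 to 60.1 over 5 mesenchymal genes and 18.5 to 37.0 over 4 sympathetic genes. Over 4 genes each, endothelial markers summed to between 2.32 and 4.43 TPM, macrophage markers to between 0.896 and 4.31, and skeletal muscle markers to at most 0.403. Of all these markers, Myog alone had no counts.

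The 4 genes share an exon plan. In GENCODE M21 each has 3 internal coding exons of 111, 104 and 199 bases, in this order along the transcript. The deposited coordinates hold the same exons, except that the 111-base exon of Fgf13 is not listed there with these ends. All 4 genes lie on the minus strand. Fgf13 (ENSMUSG00000031137) spans chrX:59062145-59568071, Fgf12 (ENSMUSG00000022523) chr16:28160120-28445227, Fgf11 (ENSMUSG00000042826) chr11:69796068-69801857 and Fgf14 (ENSMUSG00000025551) chr14:123977907-124677127 (GRCm38.p2, first to last deposited exon). The 104-base exon is shown because it lets a reader see how far reads of the 4 genes can be told apart. It lies at chrX:59125894-59125997 in Fgf13, chr16:28372913-28373016 in Fgf12, chr11:69799352-69799455 in Fgf11 and chr14:124132463-124132566 in Fgf14. The sequences are read 5′ to 3′ on the coding strand from GENCODE M21 transcripts (GRCm38), and capitals mark bases that differ from Fgf13.
Fgf13: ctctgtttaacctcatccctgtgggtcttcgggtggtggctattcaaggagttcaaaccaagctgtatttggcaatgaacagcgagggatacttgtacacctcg
Fgf12: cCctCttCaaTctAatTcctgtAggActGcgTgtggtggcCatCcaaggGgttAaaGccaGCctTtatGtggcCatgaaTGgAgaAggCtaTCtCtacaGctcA
Fgf11: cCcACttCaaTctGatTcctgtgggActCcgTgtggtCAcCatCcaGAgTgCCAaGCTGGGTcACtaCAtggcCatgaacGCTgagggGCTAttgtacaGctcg
Fgf14: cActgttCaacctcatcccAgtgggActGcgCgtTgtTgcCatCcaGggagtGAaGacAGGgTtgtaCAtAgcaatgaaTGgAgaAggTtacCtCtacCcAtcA

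In this exon Fgf12 differed from Fgf13 at 30 bases, Fgf14 at 31 and Fgf11 at 40. The differences were spread along the exon, so the longest run identical to Fgf13 was 8 bases in Fgf12, 8 in Fgf11 and 11 in Fgf14. Over the 3 exons joined (414 bases), Fgf12 and Fgf14 were the most alike, at 75.1% identity. Fgf13 was 72.2% identical to Fgf14, 72.0% to Fgf12 and 66.4% to Fgf11, and the lowest identity was 64.7%, between Fgf11 and Fgf14. Across all annotated transcripts, no pair of the 4 genes shared a stretch of 50 bases, a length chosen because the read length is not known here. The longest stretch common to a pair was 28 bases, between Fgf11 and Fgf12. No stretch common to Fgf13 and a paralog exceeded 14 bases.

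Some transcript variants of these genes start at different first exons, which give different amino-terminal ends with different effects on the channel. A count per gene adds them up. All 5 annotated first exons of Fgf13 coding transcripts, both of Fgf11 and both of Fgf14 lay in the deposited exon model. For Fgf12 the model touched only 2 of 4, and of 6203 exonic bases annotated in GENCODE M21 it held 3065. Of the bases left out, 1662 lie upstream of the model. Reads there were not counted for Fgf12, although its exons of 111, 104 and 199 bases were counted. No exon of another deposited gene overlapped Fgf11, Fgf12 or Fgf13. The non-coding gene Gm28932, on the opposite strand, shares 220 exonic bases with Fgf14 and had 0 counts in each library. As the strand setting is not known, it cannot be told if reads in these bases were counted for Fgf14.

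Fgf13 was by far the highest of the 4 genes. Library A had 1013 TPM, library B 1026 and library D 966, from 30873, 32830 and 50261 counts. The libraries lay close together, at 1002 ± 31.3 TPM (SD, n = 3), a coefficient of variation of 3.12%. Among 21397 protein-coding genes it ranked at position 117 in A, 122 in B and 151 in D. On average its level stood between those of 2 sensory neuron markers, Isl1 (494 ± 49.5 TPM) and Prph (1320 ± 307 TPM). Isl1 encodes a transcription factor and Prph encodes peripherin. In library A, Prph (970 TPM) was below Fgf13. In bulk RNA such as this, fewer cells of a type and less RNA per cell cannot be told apart.

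Fgf12, known from brain and heart and linked to infantile epilepsy, came next. Library A had 57.9 TPM, the lowest, library B 65.9 and library D 69.5 (64.4 ± 5.94 TPM, n = 3). Its ranks among coding genes were 2640, 2408 and 1892. Fgf11, the least studied member, averaged 14.3 ± 2.43 TPM, with 17.1 TPM in B above 13.5 in A and 12.4 in D.

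Fgf14, best known from the cerebellum, where its mutation causes a hereditary ataxia, was the lowest and the least even member. Library A had 6.24 TPM from 198 counts, library B 3.39 from 113 and library D 1.68 from 91 (3.77 ± 2.31 TPM, coefficient of variation 61.1%). Library A was high and library D low, although D had the most reads. All 4 members passed 1 TPM on average, as did 33.6% of all deposited genes and 55.5% of protein-coding genes. No library had a member at 0.

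**Figure D1:**
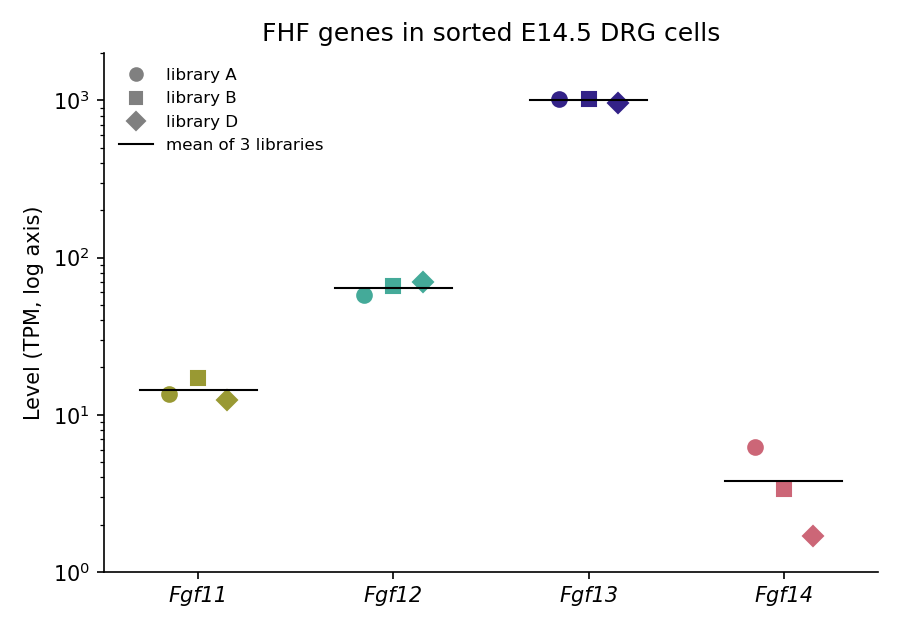
Level of each FHF (FGF homologous factor) gene in TPM (log axis) in libraries A, B and D, with the mean as a line. Fgf13 lies between 966 and 1026 TPM, the 4 genes do not overlap, and Fgf14 alone spreads widely, from 1.68 to 6.24 TPM.

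As a share of the family's summed TPM, Fgf13 held 92.9% in A, 92.2% in B and 92.0% in D (92.4 ± 0.441%, n = 3). Fgf12 held 5.31%, 5.92% and 6.62% (5.95 ± 0.657%). Fgf11 held 1.24%, 1.54% and 1.18% (1.32 ± 0.189%). Fgf14 held 0.572%, 0.305% and 0.160% (0.346 ± 0.209%). The order of shares was the same in each library. As a share of counts, with no length correction, Fgf13 held 94.0 ± 0.293%. With the longest annotated coding transcript as gene length, its share was 96.0% and its level 1611 TPM, with the TPM total kept at deposited lengths. That transcript is shorter than the summed exons of Fgf13, which join several alternative ends. For Fgf12 the longest coding transcript has 4137 bases, but reads were counted over only 3065, which lowers the Fgf12 share at this length.

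**Figure D2:**
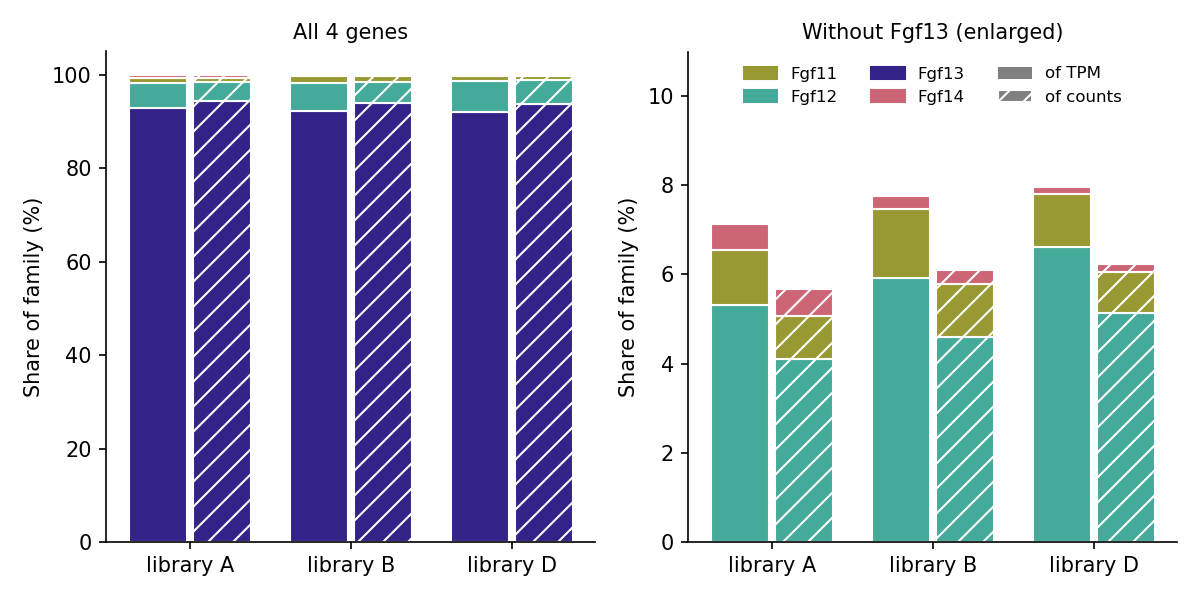
Share of each FHF gene in the family (%) per library, from TPM (plain bars) and from counts (hatched bars); the right panel leaves out Fgf13 and enlarges the rest. Fgf13 takes 92.0% to 92.9% of the family's TPM, and Fgf12 is the largest of the other 3 in each library.

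The paralogs were compared as ratios within each library, which cancels depth. Fgf13 exceeded Fgf12 15.6-fold (log2 Fgf12/Fgf13 of -4.13 for A, -3.96 for B and -3.80 for D). This was larger than its spread over libraries (-3.96 ± 0.17). Fgf13 also exceeded Fgf11 70.5-fold (log2 Fgf11/Fgf13 -6.14 ± 0.20) and Fgf14 304-fold (log2 Fgf13/Fgf14 8.25 ± 0.91, 7.34 for A, 8.24 for B and 9.17 for D). Fgf12 exceeded Fgf11 4.52-fold (log2 Fgf11/Fgf12 -2.18 ± 0.28) and Fgf14 19.5-fold (log2 4.29 ± 1.08). Fgf11 exceeded Fgf14 4.32-fold (log2 2.11 ± 0.91), though by 1.11 in A against 2.89 in D. Neighbours in the order Fgf13, Fgf12, Fgf11, Fgf14 thus differed by more than their spread. Every ratio had the same sign in 3 of 3 libraries, and an exact sign-flip permutation p (two-sided) of 0.25, also after Benjamini-Hochberg adjustment over 9 ratios. This is the smallest p that 3 libraries allow, so none can pass 0.05. With the longest coding transcript as length, log2 Fgf12/Fgf13 was -5.08, log2 Fgf11/Fgf13 -6.82 and log2 Fgf12/Fgf14 3.64. Reads of Fgf12 were counted over 3065 bases, fewer than the 4137 of that transcript, which lowers both ratios with Fgf12.

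The family was next set beside the proteins it binds. Its summed level was 1091 TPM for A, 1112 for B and 1050 for D, of which Fgf13 alone held 92.0% to 92.9%. Sodium channel alpha subunit genes summed to 225, 149 and 201 TPM, and 7 of 9 reached 1 TPM. On average the highest was Scn9a, a channel of nociceptors, at 102 ± 46.2 TPM. It was followed by the nociceptor channel Scn10a (45.2 ± 18.7 TPM), which stood above Scn9a in library B, and by Scn3a (16.6 ± 7.80 TPM) and Scn2a (9.11 ± 3.38 TPM), both known from the embryonic nervous system. The family exceeded these channel genes 5.74-fold (log2 2.28 for A, 2.90 for B and 2.38 for D; exact sign-flip permutation p = 0.25, n = 3). Alpha subunit transcripts are long, and uncorrected for length the family's log2 excess was 1.10.

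Among the 4 beta subunit genes, which encode small accessory subunits of the channel, 2 reached 1 TPM. Scn3b stood at 191 ± 92.3 TPM and Scn2b at 70.8 TPM on average. Scn4b had 0, 13 and 1 counts in A, B and D. All 8 genes of the islet-brain scaffold list reached 1 TPM. Mapk8ip2, which encodes the scaffold that the family was first found to bind, led this list, with 125 TPM in B, 95.1 in A and 44.9 in D. Mapk10, the neuronal stress kinase, reached 54.6 ± 12.9 TPM, the scaffold gene Mapk8ip3 28.1 ± 11.4 TPM and the kinase gene Mapk9 24.8 ± 6.90 TPM. Mapk13 was lowest (1.81 ± 0.994 TPM).

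All 8 genes for calmodulins and kinases that act on the channel complex reached 1 TPM. The calmodulin genes Calm2 (6713 ± 609 TPM) and Calm3 (396 ± 80.3 TPM) were among the highest. They were followed by Csnk2b (317 TPM on average), the regulatory subunit of casein kinase 2, and the lowest was its catalytic subunit Csnk2a2 (6.32 ± 2.09 TPM). Of 4 genes of the axon initial segment, where these channels gather, 3 reached 1 TPM. The adhesion gene Nrcam stood at 41.8 ± 22.8 TPM, Ank3, the ankyrin that anchors the channels, at 8.28 ± 0.832 TPM and the adhesion gene Nfasc at 7.17 ± 1.19 TPM. The spectrin gene Sptbn4 was at 0.200 ± 0.0221 TPM.

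In sum, secreted relatives were lower than the intracellular family, though Fgf18 and Fgf1 stood above Fgf11 and Fgf14 in each library. Of 18 secreted FGF genes, 5 reached 1 TPM (27.8%, against 33.6% of all deposited genes and 55.5% of protein-coding genes). These were Fgf18 (34.8 ± 7.62 TPM), Fgf1 (33.0 ± 13.8 TPM), Fgf5 (16.3 ± 5.43 TPM), Fgf9 (1.87 ± 0.211 TPM) and Fgf22, which had 4, 7 and 8 counts over a deposited length of 489 bases (2167 bases for its longest coding transcript). Fgf3, Fgf4, Fgf6, Fgf8, Fgf10 and Fgf20 had no counts, which allows up to 0.149 CPM (counts scaled to the library total) in A, 0.147 in B and 0.103 in D (3 counts, counting error only). Fgf16, the lowest with any count, had 1 count in D. The FHF family exceeded the secreted list 12.4-fold (log2 3.68, 3.43 and 3.79 in A, B and D; exact sign-flip permutation p = 0.25, n = 3). The receptors that secreted FGFs act on were represented by Fgfr1 (24.4 ± 4.30 TPM). It was the only 1 of 5 receptor genes to reach 1 TPM, and Fgfr4, the lowest, had 1 count in D. The family exceeded the receptors 43.9-fold (log2 5.46 ± 0.22, exact sign-flip permutation p = 0.25, n = 3), or by 4.42 on the log2 scale uncorrected for length.

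**Figure D3:**
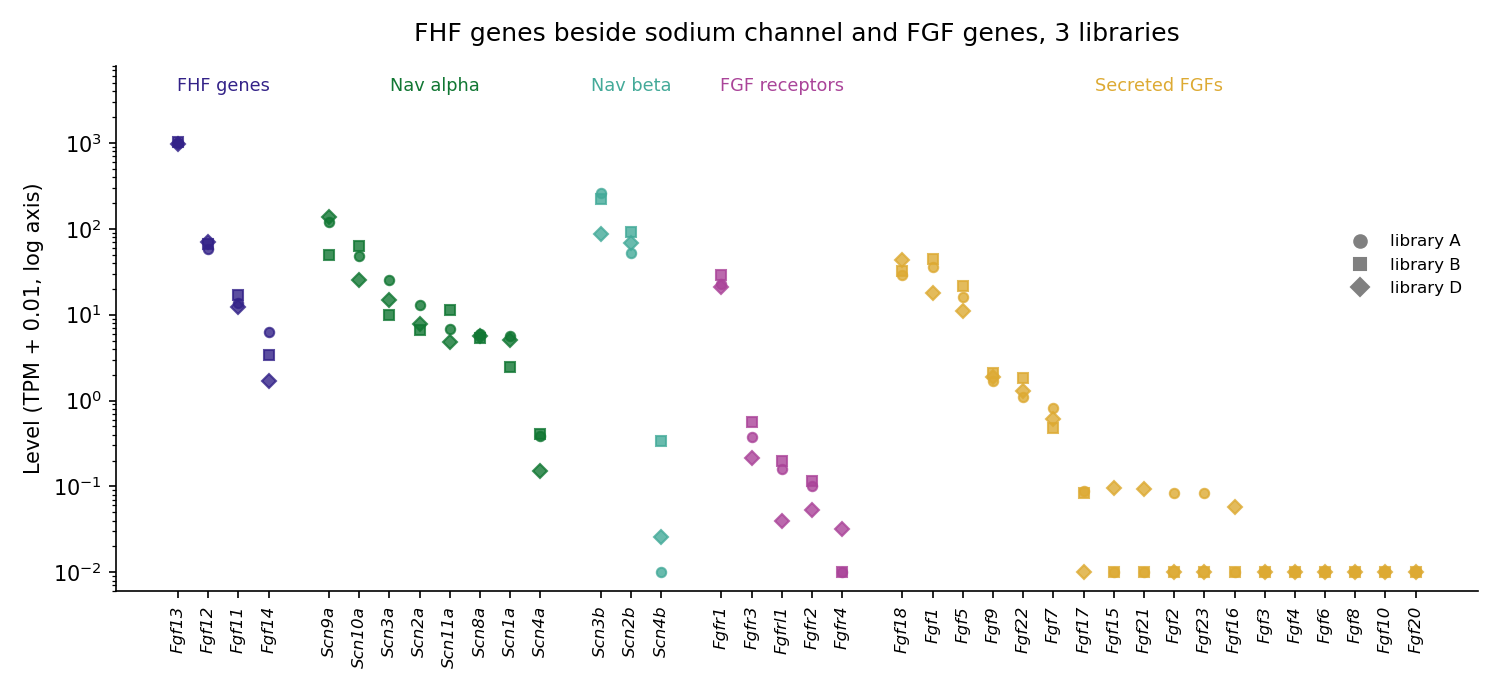
Level (TPM + 0.01, log axis) of FHF genes, sodium channel subunits, FGF receptors and secreted FGFs in libraries A, B and D. Fgf13 lies above every other gene shown, and genes with no counts lie at 0.01.

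Variation between libraries was tested over all genes with edgeR's goodness-of-fit test, which asks if a gene is more variable over the libraries than genes of similar level. It called 24 of 13530 tested genes (0.177%) at an adjusted p under 0.05, and 827 genes (6.11%) had an unadjusted p under 0.05. Leaving out A gave 7 calls, leaving out B 2 and leaving out D 27. All 4 members were tested. None was called, and none had an unadjusted p under 0.05. DESeq2 found none to be a dispersion outlier. On simulated data the edgeR test called 0 of 67 differences of 2-fold, 27 of 67 of 4-fold and 59 of 66 of 8-fold. A missing call therefore does not show equal levels. On normalised CPM the highest library exceeded the lowest 1.21-fold for Fgf13, 1.27-fold for Fgf11, 1.52-fold for Fgf12 and 2.93-fold for Fgf14. The median over all tested genes was 1.61-fold, with quartiles of 1.34 and 2.05. The range of Fgf13 was wider than that of 11.6% of tested genes, that of Fgf11 than 17.7%, that of Fgf12 than 41.8% and that of Fgf14 than 93.6%. For Fgf14 the edgeR adjusted p was 0.90 (unadjusted 0.080), so its spread did not pass the test. Without B, the unadjusted p of Fgf14 was 0.038 and the edgeR adjusted p 0.96. By counting error alone, CPM of Fgf14 was 3.13-fold higher in A than in D (95% exact interval 2.43 to 4.06). This interval leaves out differences between pools. For Fgf13, CPM was 1.13-fold higher in D than in A (1.11 to 1.15). In TPM the direction was the opposite, with 966 in D and 1013 in A.

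**Figure D4:**
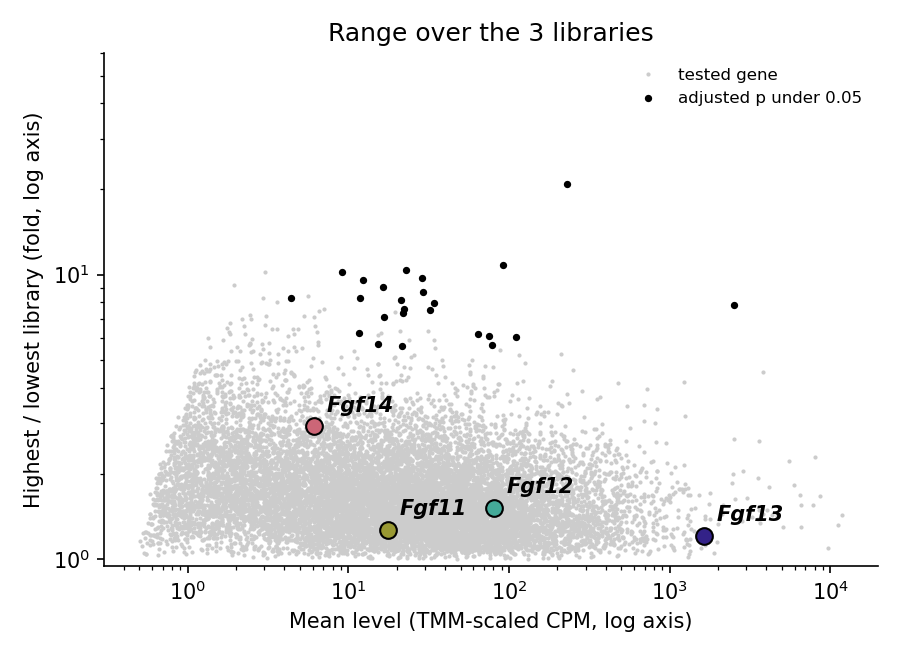
Ratio of the highest to the lowest library (fold, log axis) against mean level (TMM-scaled CPM, log axis) for 13530 tested genes, with called genes in black and FHF genes in colour. Fgf13 and Fgf11 lie low in the cloud, and Fgf14 lies high in it at 2.93-fold but below the called genes.

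Several marker sums were ordered over the libraries as the members were. Like Fgf14, 3 marker sums were highest in A and lowest in D. They were 4.31, 1.84 and 0.896 TPM in A, B and D for macrophages, 4.43, 3.71 and 2.32 for endothelium and 37.0, 30.1 and 18.5 for sympathetic neurons. Of these 12 markers 4 reached 1 TPM, and none was at 0 in all libraries. Of the axon initial segment list, Nrcam ran the same way, at 62.6, 45.3 and 17.5 TPM, while Ank3, Nfasc and Sptbn4 did not. Like Fgf12, glial markers (6 of 7 at 1 TPM) were lowest in A, with sums of 487, 784 and 878 TPM. Like Fgf11, mesenchymal markers (4 of 5 at 1 TPM) were highest in B, with sums of 15.5, 60.1 and 9.57 TPM. The part of these cells in the members' levels was not tested.

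In the same edgeR test, none of the 37 tested genes of the 7 partner and FGF lists was called. The sodium channel gene Scn9a (unadjusted p = 0.0070, edgeR adjusted p = 0.49, range 3.45-fold) and Nrcam (unadjusted p = 0.031, edgeR adjusted p = 0.74, range 2.83-fold) had an unadjusted p under 0.05, and DESeq2 marked no gene of these lists. The median range over these 37 genes was 1.74-fold, against 1.395-fold over the 4 members and 1.61-fold over all tested genes.

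Genes with the most similar levels were sought among 12643 coding genes outside the family with at least 10 counts in each library, by the root mean square difference of log2(TPM + 0.1) over the 3 libraries. For Fgf13 they were Dstn (0.05), Mdh1 (0.07) and Gpx1 (0.09). Dstn encodes an actin-severing protein, at 993, 1034 and 1021 TPM. For Fgf12 they were Trappc2 (0.02), Faap20 (0.03) and Msrb1 (0.05), and for Fgf11 Ogg1 (0.02), Uhmk1 (0.03) and Eno3 (0.04). For Fgf14 they were Jade3 (0.05), Pcdhb16 (0.09) and Bhlhe41 (0.11). Jade3 had 6.15, 3.21 and 1.66 TPM. With so many genes and 3 libraries, close matches of level are common, and these are given as a description.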

How the data were processed

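The deposited tables, 1 per library, hold raw counts by Ensembl gene along with exon positions and a length for each gene. Reads had been processed with Subread and counted with featureCounts 1.4.5 on build GRCm38.p2, per the submitters' processing notes. The sources used here do not give the read length, the strand setting or the handling of reads with multiple matches. Per the labels' protocols, 10 ng of RNA was amplified with a SMARTer kit and no molecular identifiers are described, so intervals and floors cover counting error only. The authors also deposited CPM and RPKM, which equalled values recomputed from counts and lengths (largest differences 4.7e-11 and 5.5e-12). Of 41388 genes, 40254 matched a GENCODE M21 symbol.

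TPM was computed from counts and deposited lengths over all genes. Ratios within libraries had an exact sign-flip permutation test, two-sided. For variation between libraries edgeR 4.0.16 was run under R 4.3.3 (TMM, filterByExpr, intercept-only fit, trended dispersion, deviance goodness of fit, Benjamini-Hochberg adjustment over all tested genes) and checked on simulated data. The quasi-likelihood test needs at least a pair of groups. DESeq2 1.42.0 dispersion outliers were an alternative. Named from each list were the 4 highest genes, the lowest and those with no counts; some listed genes are counted in the sums but not reported here by name. Members and lists were chosen with earlier results of these data known. Exons were compared in GENCODE M21 (GRCm38), in Python 3.11.15.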

Additional observations from a re-analysis of the deposited data

How the results depend on the processing

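All 9 log2 ratios kept their sign with CPM in place of TPM and with the longest coding transcript as length. They also kept it with a pseudocount of 0.1 TPM and without each library. So did the 3 ratios to lists with listed genes of at least 1 TPM only (57 values in all). The pseudocount, the left-out library and the shorter lists could not change these signs, which every library shared. Only CPM and transcript length put the signs to a test. The 4 members stayed above an adjusted p of 0.05 under each alternative edgeR fit (28 values over the 4 genes), with the lowest adjusted p at 0.79, for Fgf14 with a common dispersion. With CPM the shares were 94.0% for Fgf13, 4.62% for Fgf12 and 1.02% for Fgf11. With the longest coding transcript as length they were 96.0%, 2.85% and 0.855%. The levels of Fgf13 and Fgf12 were then 1611 and 47.7 TPM, with the TPM total kept at deposited lengths. Here the length of Fgf12 was 4137 bases while its reads were counted over 3065, which lowers its share and level. Without mitochondrial and hemoglobin genes in the total, Fgf13 stood at 1042 TPM. The other 14 of 20 alternative shares and 17 of 20 alternative levels moved by less than 1 SD. Most of these leave out a library, and leaving out 1 of 3 values cannot move a mean by 1 SD. Those alternatives therefore do not test how stable the shares and levels are. The count of genes varying between libraries was between 2 and 27 when a library was left out, and DESeq2 marked 4 genes as dispersion outliers. No paired analysis was possible because all libraries belong to 1 group. With 3 libraries and 91 to 198 counts, the level of Fgf14 is the least precise.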
